A study of Rattus norvegicus with 25 samples.

Results

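The tumour necrosis factor (TNF) superfamily was examined in rat gingiva as 35 genes, 16 ligands and 19 receptors, of the 30547 genes in the count table. The members were the gene symbols that start with Tnfsf or Tnfrsf, apart from a few symbols that the selection left out, together with Tnf, Lta, Ltb, Ltbr, Cd40, Cd40lg, Cd27, Cd70, Fas, Faslg and Eda2r. The rule names gene symbols and uses no measured value, but it was set with earlier results of these data known. TNF ligands are membrane proteins that assemble into trimers and can be shed by proteases such as Adam17. Their receptors carry cysteine-rich domains outside the cell and, inside it, either a death domain that recruits Tradd, Fadd and caspases or short motifs that bind Traf adaptors and lead to NF-κB and MAP kinases. In the gingiva, Tnf is known as an inflammatory cytokine of periodontitis, whereas many other members control the survival and costimulation of lymphocytes.

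RNA was sequenced from 25 gingiva samples of wild-type male Sprague-Dawley rats, given in the labels as 6 weeks old, with 5 samples in each of 5 groups. The methods of the study give another age. Experimental periodontitis was induced with a silk ligature around the upper molars on both sides and with Porphyromonas gingivalis smeared onto the silk. The Cur/ZNP gel group had periodontitis and a hydrogel with curcumin and zinc oxide nanoparticles, each at a lower concentration than in its single gel. The ZNP gel group had periodontitis and a hydrogel with zinc oxide nanoparticles, and the Cur gel group had periodontitis and a hydrogel with curcumin. The EP group had periodontitis without either agent, and whether it received a drug-free hydrogel is not stated. The Sham group was not given periodontitis and received hydrogel as its control treatment. Each gel was injected as 200 μL into the periodontal pocket once a week for 4 weeks. Libraries are named here by group and replicate number, such as EP 3, and nothing in the labels says that equal numbers belong together. The model is a short-term ligature and infection in young animals, and each library is bulk tissue, so fewer cells of a type and less RNA per cell cannot be told apart.

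The libraries held 50690789 to 81791804 reads, with a median of 62227570. Values are normalized counts, the reads of a gene divided by the library's size factor, and differences are on the scale log2(normalized count + 1). Of all genes, 16092 reached 2 CPM (reads scaled to an equal library total) in at least 1 library and were tested with limma, with p adjusted over all of them by the Benjamini-Hochberg method and a threshold of 0.05. Marker genes of nasal glands took 21.9% of the reads of Sham 4, 16.6% of EP 3 and 20.6% of EP 4, and at most 0.120% of any other library, and results are given also without these 3 libraries. Summed keratinocyte markers, at 150500 to 2226000 normalized counts, were present in every library, as the labelled tissue implies, and were lowest in Sham 4. Of the 11 markers, 2 were called higher and 3 lower in EP against Sham. These counts were 4 and 2 in Cur/ZNP gel, 4 and 0 in ZNP gel, and 3 and 1 in Cur gel. The marker Krt5 was at 260600 to 844900 in Sham 1, 2, 3 and 5, and at 34830 in Sham 4. In the periodontitis libraries Krt5 was at 34580 to 143500. Summed skeletal muscle markers were at 353700 to 1802000 in EP, against 21280 to 388400 in Sham, so muscle transcripts also moved with the groups. When libraries were scaled by total reads, the median difference of all genes moved to -0.12 in EP, 0.15 in Cur/ZNP gel, 0.20 in ZNP gel and 0.16 in Cur gel, each against Sham. The all-gene calls against Sham were then 1212 higher and 1840 lower in EP, where size factors gave 3024 and 3033, 2708 and 675 in Cur/ZNP gel (3248 and 3134), 2026 and 392 in ZNP gel (2686 and 2476), and 2363 and 698 in Cur gel (3049 and 3070).

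All 19 receptors and 11 of the 16 ligands passed the filter on low values. The other 5, all ligands, peaked at 1.19 CPM for Tnfsf18, 1.13 CPM for Faslg, 1.05 CPM for Tnfsf14, 0.374 CPM for Cd70 and 0.228 CPM for Tnfsf4, and were not tested. Tnfsf4 had reads in 11 of the 25 libraries, whereas Faslg, the death ligand of cytotoxic lymphocytes, and Tnfsf18 had reads in 24. Of the 30 tested members, Lta and Tnf reached 2 CPM in 1 library, Cd40lg in 3 and Tnfrsf18 in 4, and these were not tested under a stricter filter of 2 CPM in 5 libraries. In 9 members the sum joined more than 1 transcript, up to 3 in Tnfsf13b.

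Against Sham, Eda2r and Tnfsf15 rose in the EP group, while Tnfrsf12a, Tnfrsf19, Cd40, Tnfrsf18 and Ltbr fell. These 7 were 23.3% of the 30 tested members, beside 37.6% of all tested genes called in this comparison, with 2 higher (18.8% of all genes) and 5 lower (18.8% of all genes). The median difference of the members was -0.56, against 0.013 for all tested genes, and 21 of the 30 differences were negative. Of the 19 tested receptors 6 were called (31.6%), and of the 11 tested ligands 1 was called (9.09%), both below the 37.6% of all genes. By DESeq2 on whole reads, 2 of the 30 members were higher and 13 lower, beside 3255 and 3578 of all 16092 genes. The share of members called thus depended on the tool. Without Sham 4, EP 3 and EP 4, 3 members were higher (Eda2r, Tnfsf10 and Tnfsf15) and 1 was lower (Tnfrsf12a). Of all 16092 genes, 2154 were then higher and 2347 lower. The 5 lower calls became 2 without EP 1 or EP 3, 1 without EP 2 or Sham 1, 3 without Sham 4 or Sham 5, and 8 without Sham 2. The 2 higher calls became 4 without Sham 2 or Sham 4. The lower calls of all genes, 3033 with every library, were 2717 without EP 1, 2714 without EP 3 and 2483 without EP 2. They were 2357 without Sham 1, 3121 without Sham 4, 3197 without Sham 5 and 3395 without Sham 2. The higher calls of all genes, 3024 with every library, were 3388 without Sham 2 and 2890 without Sham 4.

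**Figure D1:**
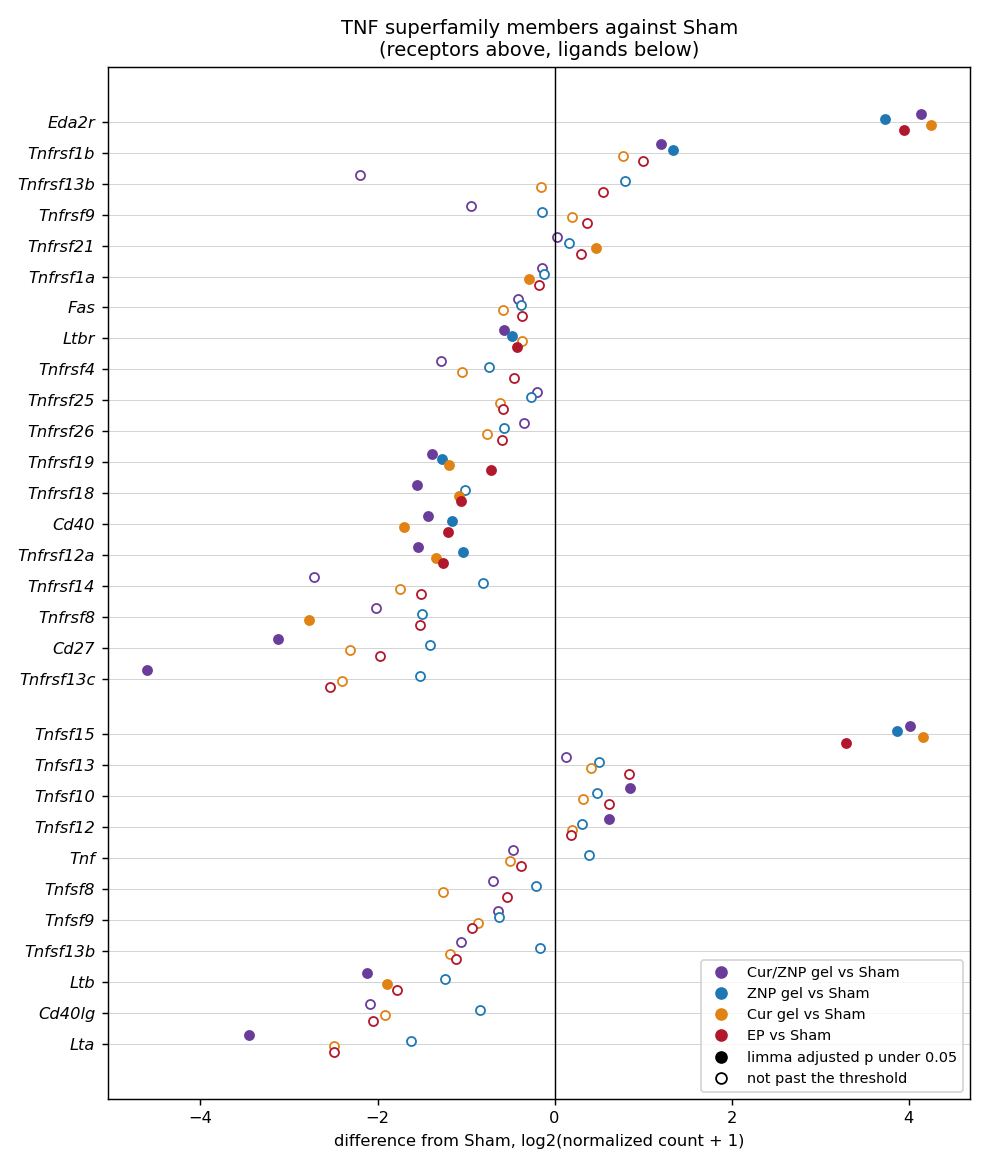
Difference of each tested member from Sham on the log2(normalized count + 1) scale (horizontal axis) for the 4 periodontitis groups, with receptors above and ligands below. Filled points passed an adjusted p of 0.05 by limma and open points did not. Eda2r and Tnfsf15 lie above 3 in every group, and Tnfrsf12a, Tnfrsf19 and Cd40 are filled on the left in every group.

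In the gel groups against Sham the calls were 5 higher and 9 lower for Cur/ZNP gel (20.2% and 19.5% of all genes), 3 higher and 4 lower for ZNP gel (16.7% and 15.4%), and 3 higher and 7 lower for Cur gel (18.9% and 19.1%). The called members were 46.7% in Cur/ZNP gel, beside 39.7% of all genes, 23.3% in ZNP gel, beside 32.1%, and 33.3% in Cur gel, beside 38% of all genes. Eda2r and Tnfsf15 were among the higher calls in all 4 comparisons, and Tnfrsf12a, Tnfrsf19 and Cd40 among the lower calls. Eda2r reached 2 CPM in 14 libraries and Tnfsf15 in 7, and no Sham library was among them. Those of Tnfsf15 were all gel libraries. Both members thus passed the filter only through groups in which they were high, and their calls are given as a description. The 4 comparisons share the same Sham libraries, so they are not separate evidence. The calls of Eda2r in all 4 comparisons, Tnfrsf12a in EP, Cur/ZNP gel and Cur gel, Tnfrsf19 in the gel groups, Tnfsf15 in Cur/ZNP gel and Cur gel and Tnfsf12 in Cur/ZNP gel held in every alternative tried. Every other call of a member ended in at least 1 alternative, most often with only the groups compared in the fit. Without Sham 4 (and EP 3 and EP 4, which share the fit), the counts were 5 higher and 5 lower for Cur/ZNP gel, 5 and 2 for ZNP gel, and 3 and 4 for Cur gel. Of all 16092 genes, 2848 were then higher and 3049 lower in Cur/ZNP gel, 2302 and 2449 in ZNP gel, and 2868 and 3010 in Cur gel. The lower members of Cur/ZNP gel became 5 without Sham 1, beside 2446 of all genes. The lower members of ZNP gel became 2 without ZNP gel 3, ZNP gel 4, ZNP gel 5 or Sham 4, and 7 without Sham 2. Of all genes, 2393, 1908, 2054, 2452 and 3021 were lower in that order. The lower members of Cur gel became 4 without Cur gel 2, Sham 1 or Sham 4, and 11 without Sham 3. Of all genes, 2498, 2313, 2989 and 2504 were lower in that order.

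The starts of the 4 members that are described next, those with the smallest adjusted p in EP against Sham, are shown so that the members that moved together can be compared by sequence. Each run holds the 250 bases before and the 50 bases after the RefSeq start of the gene in the build GRCr8, 5′ to 3′, and capitals mark E-boxes, the letters CANNTG, which read the same on both strands in their fixed letters. The windows are chrX:66280571-66280870 for Eda2r, chr5:82171609-82171908 for Tnfsf15, chr10:13213599-13213898 for Tnfrsf12a and chr15:39334517-39334816 for Tnfrsf19, all on the minus strand.
Eda2r: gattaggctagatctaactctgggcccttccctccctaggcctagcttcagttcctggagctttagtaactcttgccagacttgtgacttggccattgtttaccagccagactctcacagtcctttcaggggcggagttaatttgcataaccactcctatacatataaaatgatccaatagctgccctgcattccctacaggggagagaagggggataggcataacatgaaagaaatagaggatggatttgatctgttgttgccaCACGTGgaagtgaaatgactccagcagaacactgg
Tnfsf15: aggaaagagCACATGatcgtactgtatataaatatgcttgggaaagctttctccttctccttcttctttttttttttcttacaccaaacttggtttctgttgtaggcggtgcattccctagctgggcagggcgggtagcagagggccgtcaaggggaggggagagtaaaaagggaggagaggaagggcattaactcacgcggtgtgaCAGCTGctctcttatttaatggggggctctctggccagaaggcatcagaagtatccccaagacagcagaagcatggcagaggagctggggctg
Tnfrsf12a: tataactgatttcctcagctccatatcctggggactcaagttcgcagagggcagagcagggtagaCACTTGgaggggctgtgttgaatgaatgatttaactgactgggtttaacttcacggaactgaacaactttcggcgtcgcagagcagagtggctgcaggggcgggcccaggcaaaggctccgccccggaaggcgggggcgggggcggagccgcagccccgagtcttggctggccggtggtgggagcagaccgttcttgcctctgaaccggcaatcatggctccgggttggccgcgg
Tnfrsf19: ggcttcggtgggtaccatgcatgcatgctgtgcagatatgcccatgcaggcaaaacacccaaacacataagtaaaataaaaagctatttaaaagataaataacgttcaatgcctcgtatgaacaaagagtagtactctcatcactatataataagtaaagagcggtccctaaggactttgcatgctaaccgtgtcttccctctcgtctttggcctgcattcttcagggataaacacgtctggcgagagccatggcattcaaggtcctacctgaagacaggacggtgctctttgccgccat
The Eda2r window held 1 E-box and the Tnfsf15 window held 2, whereas the Tnfrsf12a window held 1 and the Tnfrsf19 window held 0. E-boxes are common letters, present in 72.1% of all 33469 promoter windows of this length and in 21 of the 28 members that had one (75%). The NF-κB consensus (searched on both strands) was in 4.18% of all windows and in those of Tnfrsf8, Cd70, Tnfsf14, Lta and Ltb, and the AP-1 letters TGANTCA, again on both strands, were in 7.33% of all windows and in those of Fas, Tnfrsf1b and Tnfrsf8. None of the 4 windows printed here held either of these. The GC content was 47.3% for Eda2r, 50.7% for Tnfsf15, 61.3% for Tnfrsf12a and 45.3% for Tnfrsf19, beside a median of 51.7% over all windows. A match describes letters and is no sign of a bound factor.

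Eda2r, the receptor of the A2 form of ectodysplasin, was the member with the smallest p (chrX:66561286-66602506 in Rnor_6.0, minus strand). Its normalized counts were 124, 225, 156, 114 and 141 in EP 1 to EP 5, against 13.7, 35.6, 0, 8.13 and 15.7 in Sham 1 to Sham 5. In the gel groups they were 197, 108, 145, 135 and 322 in Cur/ZNP gel, 102, 141, 69.9, 184 and 179 in ZNP gel, and 123, 319, 225, 102 and 223 in Cur gel. Every periodontitis library thus lay above every Sham library, and 1 Sham library had no read. The difference from Sham was 3.95 (SE 0.63) in EP, with adjusted p = 0.000197 by limma. It was 4.14 in Cur/ZNP gel (adjusted p = 0.000107), 3.74 in ZNP gel (adjusted p = 0.000533) and 4.25 in Cur gel (adjusted p = 8.29e-05). With low counts in Sham the size depends on the scale, and edgeR on whole reads gave 3.34 in EP, while a pseudocount of 5 gave 3.26. The EP call held without each single library, and without Sham 4, EP 3 and EP 4 the difference was 4.03 (adjusted p = 0.00336). Eda2r passed the filter only through periodontitis libraries, in which it was high, so its calls and their persistence are a description. Eda, the gene of the ligand, had 163 ± 40.1 in EP and 136 ± 67.4 in Sham (SD, n = 5 each, adjusted p = 0.457 by limma). Eda2r is also expressed in skeletal muscle of mice, and of the 10 tested muscle markers 8 rose in EP, 8 in Cur/ZNP gel, 5 in ZNP gel and 2 in Cur gel, each against Sham. Cur/ZNP gel libraries had muscle sums of 324700 to 2568000, ZNP gel libraries of 318600 to 2948000 and Cur gel libraries of 8081 to 2073000, beside the ranges of EP and Sham given above. The libraries with the most Eda2r, Cur/ZNP gel 5 at 322 counts and Cur gel 2 at 319, had muscle sums of 2568000 and 2073000. ZNP gel 5, with the highest sum of all libraries, 2948000, had 179 counts of Eda2r. Cur gel 4, with the lowest sum, 8081, had 102 counts of Eda2r. The Sham libraries, with sums of 21280 to 388400, had at most 35.6 counts. The part of muscle in these values was not tested.

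Tnfsf15, a ligand of endothelium and myeloid cells that costimulates T cells, rose as well (chr5:79553742-79570073, minus strand). It had 38.8, 116, 117, 41.0 and 47.9 normalized counts in EP 1 to EP 5, against 0, 40.9, 0, 8.13 and 31.4 in Sham 1 to Sham 5. It had 59.1, 129, 243, 68.8 and 103 in Cur/ZNP gel, 80.3, 166, 105, 105 and 52.2 in ZNP gel, and 182, 71.2, 132, 146 and 87.7 in Cur gel. The gel groups did not overlap with Sham, whereas EP 1, at 38.8, lay below Sham 2. The difference from Sham was 3.30 (SE 0.82) in EP, with adjusted p = 0.00370 by limma, 4.02 in Cur/ZNP gel (adjusted p = 0.000836), 3.86 in ZNP gel (adjusted p = 0.00196) and 4.16 in Cur gel (adjusted p = 0.000656). In EP it was 2.12 by edgeR on whole reads and 2.30 with a pseudocount of 5, and with EP and Sham fitted alone the call ended (adjusted p = 0.0688). Without Sham 4, EP 3 and EP 4 the difference was 3.33 (adjusted p = 0.0242). Tnfsf15 passed the filter only through gel libraries, in which it was high, so its calls too are a description. Tnfrsf25, the receptor of this ligand in mouse and human, moved the other way in its means, with 216 ± 18.7 in EP and 355 ± 189 in Sham (SD, n = 5 each), and did not pass (-0.59, adjusted p = 0.132 by limma).

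**Figure D2:**
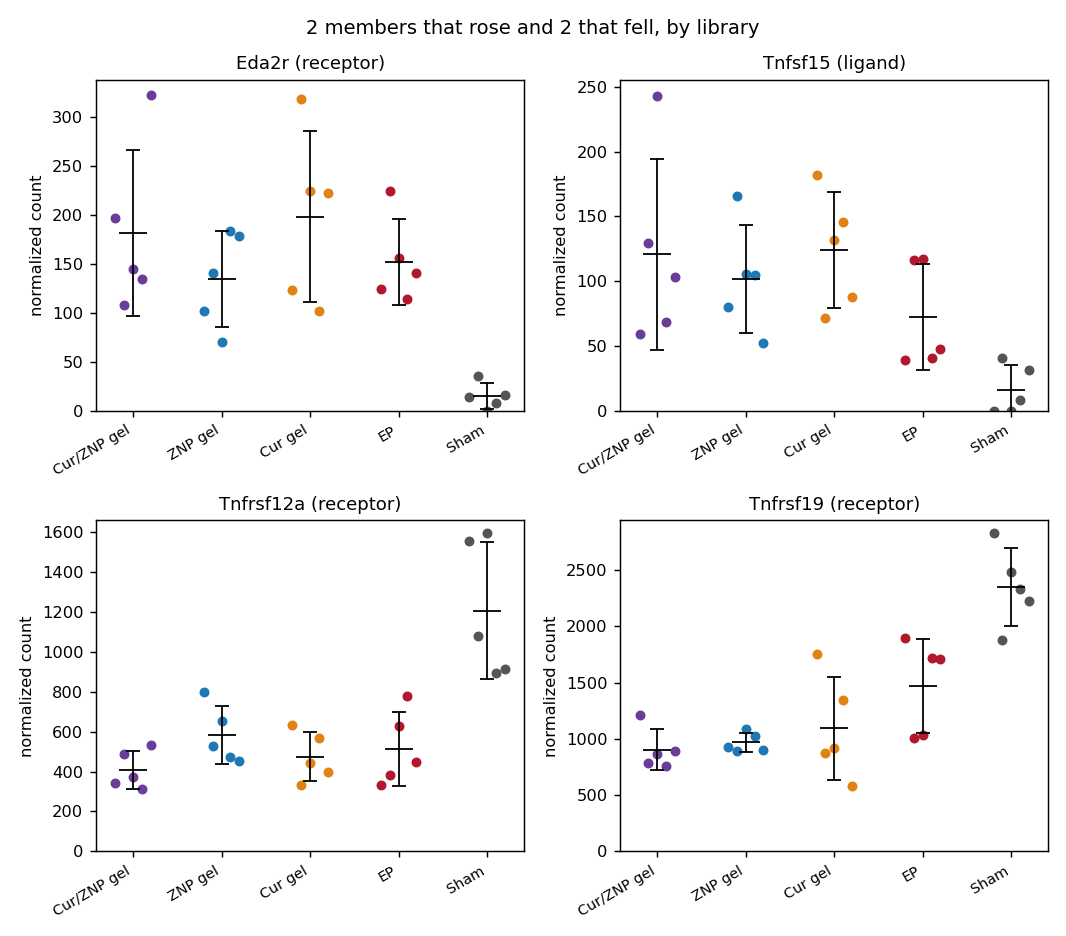
Normalized counts (vertical axis, from 0) of Eda2r, Tnfsf15, Tnfrsf12a and Tnfrsf19 in each library, by group. Points are libraries in replicate order, and bars show the mean and SD of 5 libraries. Eda2r is at 69.9 or more in all periodontitis libraries and at 35.6 or less in Sham, while Tnfrsf12a is at 801 or less in the periodontitis groups and at 894 or more in Sham.

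Tnfrsf12a, the receptor of Tnfsf12 and a gene of growing and injured tissue, had the smallest p of the members that fell (chr10:12995904-12997930, minus strand). It had 335, 381, 627, 780 and 448 normalized counts in EP 1 to EP 5, against 1555, 1080, 1596, 894 and 916 in Sham 1 to Sham 5. It had 343, 486, 374, 313 and 532 in Cur/ZNP gel, 801, 530, 656, 473 and 453 in ZNP gel, and 633, 333, 443, 570 and 400 in Cur gel. All 20 periodontitis libraries lay below all 5 Sham libraries. The difference from Sham was -1.26 (SE 0.25) in EP, with adjusted p = 0.000759 by limma, -1.54 in Cur/ZNP gel (adjusted p = 0.000156), -1.04 in ZNP gel (adjusted p = 0.00412) and -1.34 in Cur gel (adjusted p = 0.000446). In EP the call held without each single library and was -1.70 without Sham 4, EP 3 and EP 4 (adjusted p = 0.00110). In ZNP gel it ended when libraries were scaled by total reads (adjusted p = 0.0732).

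Tnfrsf19, a receptor of stem and epithelial cells also known as Troy, fell too (chr15:41246308-41338284, minus strand). It had 1892, 1005, 1030, 1717 and 1709 normalized counts in EP 1 to EP 5, against 2828, 1882, 2483, 2335 and 2227 in Sham 1 to Sham 5. It had 1212, 782, 867, 757 and 895 in Cur/ZNP gel, 931, 893, 1088, 1029 and 896 in ZNP gel, and 1752, 874, 921, 1344 and 578 in Cur gel. The gel groups lay below all Sham libraries, and EP 1 overlapped with Sham 2. The difference from Sham was -0.72 (SE 0.23) in EP, with adjusted p = 0.0190 by limma, -1.39 in Cur/ZNP gel (adjusted p = 0.000206), -1.27 in ZNP gel (adjusted p = 0.000807) and -1.19 in Cur gel (adjusted p = 0.000620). The EP call ended without EP 2, EP 3 or Sham 1 (adjusted p = 0.0531 to 0.0645) and without Sham 4, EP 3 and EP 4 (-0.65, adjusted p = 0.0887), whereas the gel calls held without each single library. Markers of mitosis moved the same way, at 4316 to 7324 summed normalized counts in Cur/ZNP gel, 4705 to 9703 in ZNP gel, 4456 to 8244 in Cur gel and 5528 to 9070 in EP, against 13910 to 24790 in Sham. Of the 8 mitosis markers, 7 fell in EP, 8 in Cur/ZNP gel, 7 in ZNP gel and 7 in Cur gel, and their part in the values of Tnfrsf12a and Tnfrsf19 was not tested. The part of keratinocytes, with Krt5 given above, was not tested either.

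Cd40, the costimulatory receptor of B cells, dendritic cells and macrophages, Tnfrsf18, a receptor of regulatory and activated T cells, and Ltbr, the receptor of lymphotoxin on stromal and epithelial cells, made up the rest of the lower calls in EP. Cd40 had 98.1, 163, 195, 215 and 235 normalized counts in EP 1 to EP 5, against 1142, 179, 150, 689 and 486 in Sham 1 to Sham 5. EP thus overlapped with Sham 2 and Sham 3 but not with the other Sham libraries. The difference was -1.201 (SE 0.44, adjusted p = 0.0368 by limma), and the call ended without EP 1, EP 2, EP 3, Sham 1, Sham 4 or Sham 5 (adjusted p = 0.0501 to 0.137). Tnfrsf18 had 51.5, 70.8, 71.9, 141 and 95.8 in EP 1 to EP 5, against 401, 56.9, 180, 207 and 168 in Sham 1 to Sham 5, with Sham 2 among the EP values. Its difference was -1.06 (SE 0.40, adjusted p = 0.0405 by limma), and the call ended without EP 1, EP 2, EP 3, Sham 1, Sham 3, Sham 4 or Sham 5 (adjusted p = 0.0555 to 0.145). Ltbr had 3630, 4936, 5804, 4431 and 3763 in EP 1 to EP 5, against 5354, 5171, 7454, 7929 and 4675 in Sham 1 to Sham 5, and the groups overlapped. Its difference was -0.43 (SE 0.17, adjusted p = 0.0488 by limma), and the call ended without EP 1, EP 2, EP 4, EP 5, Sham 1, Sham 3 or Sham 4 (adjusted p = 0.0547 to 0.134). None of the 3 calls remained without Sham 4, EP 3 and EP 4 (adjusted p = 0.114 for Cd40, 0.0724 for Tnfrsf18 and 0.0736 for Ltbr).

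In the gel groups against Sham, Cd40 was called lower in all 3, Tnfrsf18 in Cur/ZNP gel and Cur gel, and Ltbr in Cur/ZNP gel and ZNP gel. Cd40 differed by -1.42 in Cur/ZNP gel (adjusted p = 0.0146), -1.16 in ZNP gel (adjusted p = 0.0488) and -1.70 in Cur gel (adjusted p = 0.00505), all by limma. The Cur gel call held without each single library and without Sham 4, EP 3 and EP 4, whereas without these 3 libraries the Cur/ZNP gel call (adjusted p = 0.0515) and the ZNP gel call (adjusted p = 0.133) ended. The Cur/ZNP gel call ended without Sham 1 (adjusted p = 0.0575), and the ZNP gel call ended without ZNP gel 2, ZNP gel 3, ZNP gel 4, ZNP gel 5, Sham 1, Sham 4 or Sham 5 (adjusted p = 0.057 to 0.17). Tnfrsf18 differed by -1.56 in Cur/ZNP gel (adjusted p = 0.00435) and by -1.08 in Cur gel (adjusted p = 0.0361), and did not pass in ZNP gel (-1.01, adjusted p = 0.0558). The Cur/ZNP gel call of Tnfrsf18 held without each single library, and that of Cur gel ended without Cur gel 2, Cur gel 3, Cur gel 4, Sham 1, Sham 3 or Sham 4 (adjusted p = 0.0641 to 0.131). Ltbr differed by -0.58 in Cur/ZNP gel (adjusted p = 0.0101), which held without each single library, and by -0.48 in ZNP gel (adjusted p = 0.0348), which ended without ZNP gel 1, ZNP gel 3, ZNP gel 4, ZNP gel 5, Sham 3 or Sham 4 (adjusted p = 0.0518 to 0.101). Ltbr did not pass in Cur gel (-0.37, adjusted p = 0.0865 by limma). Without Sham 4, EP 3 and EP 4, the Tnfrsf18 call in Cur gel (adjusted p = 0.0698) and the Ltbr call in ZNP gel (adjusted p = 0.0895) ended, and both calls in Cur/ZNP gel held.

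Several members of lymphocytes spread widely among the Sham libraries. Of these, Cd27, Tnfrsf13c, Ltb, Lta and Tnfrsf8 are described here because single comparisons called them, and Tnfsf13b and Tnfrsf14 were chosen after their values were seen. Cd27, a receptor of T cells and memory B cells, had 11.7, 42.3, 117, 204 and 256 normalized counts in EP 1 to EP 5, against 2924, 62.2, 21.0, 1281 and 605 in Sham 1 to Sham 5. Tnfrsf13c, the receptor of B cells for Tnfsf13b, had 20.4, 17.96, 247, 346 and 406 in EP, against 3021, 133, 83.9, 1923 and 1434 in Sham. Ltb, a subunit of membrane lymphotoxin, had 69.9, 75.0, 223, 218 and 217 in EP, against 2141, 101, 129, 1514 and 643 in Sham. In all 3 genes Sham 1, Sham 4 and Sham 5 were high and Sham 2 and Sham 3 lay within the range of EP. The same split held for Tnfrsf14, a receptor of lymphocytes, at 5786, 218, 97.0, 3581 and 2084 in Sham 1 to Sham 5, and for the B cell ligand Tnfsf13b, at 909, 140, 73.4, 677 and 261. Ms4a1, a B cell marker that is no member, had 5307, 277, 278, 4933 and 3407 in the same Sham libraries, and Cd3e, of T cells, had 1250, 169, 48.5, 748 and 731. None of Cd27 (-1.97, adjusted p = 0.218), Tnfrsf13c (-2.54, adjusted p = 0.140), Ltb (-1.78, adjusted p = 0.0589), Tnfrsf14 (-1.51, adjusted p = 0.338) and Tnfsf13b (-1.12, adjusted p = 0.178) passed limma's test in EP against Sham.

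**Figure D3:**
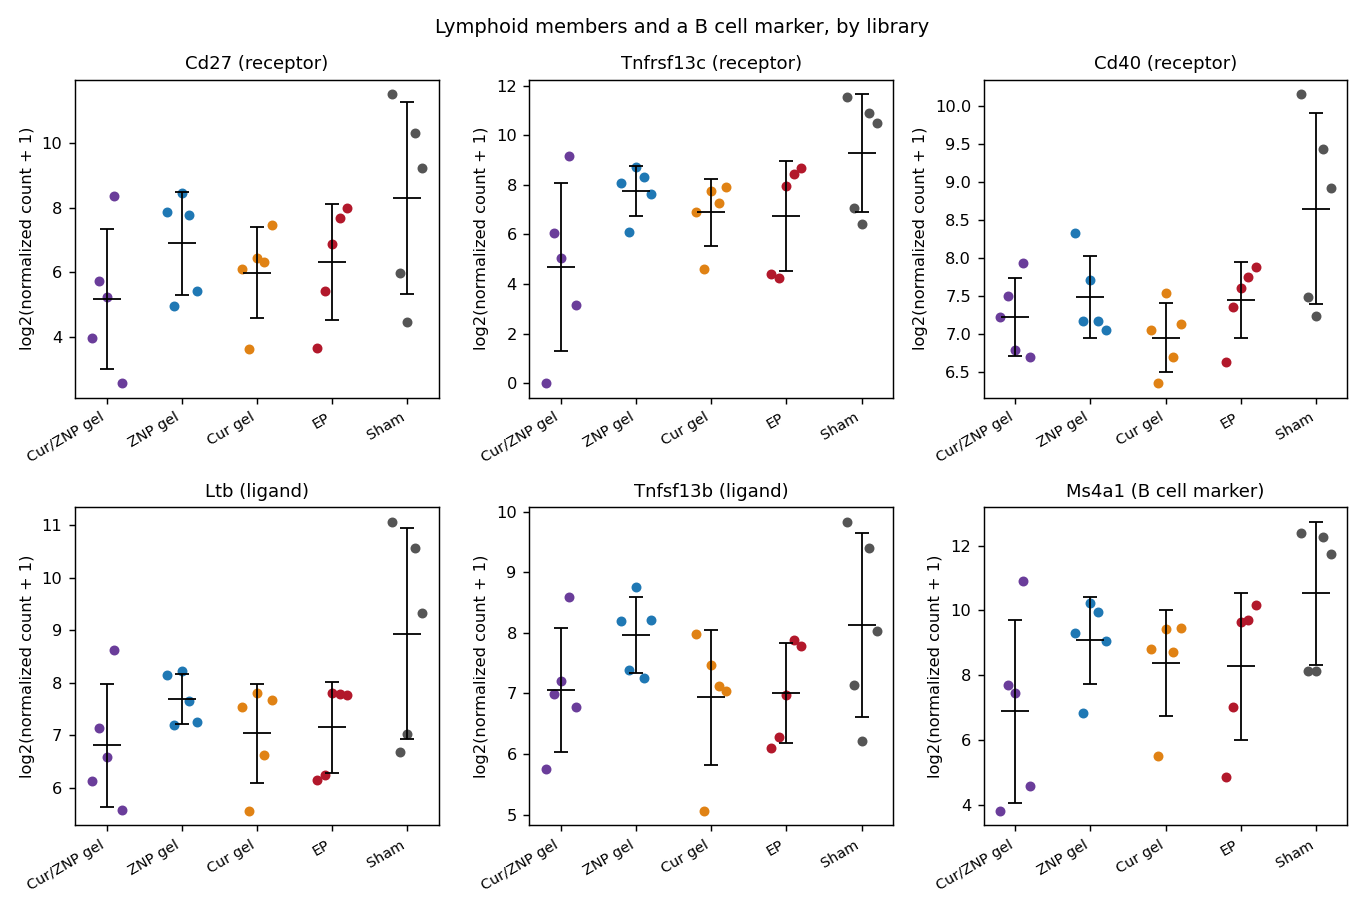
Log2(normalized count + 1) (vertical axis, not starting at 0) of the members Cd27, Tnfrsf13c, Cd40, Ltb and Tnfsf13b and of the B cell marker Ms4a1 in each library, by group. Points are libraries in replicate order, and bars show the mean and SD of 5 libraries on this scale. In Sham, replicates 1, 4 and 5 stand above replicates 2 and 3 in every panel, and in Cur/ZNP gel replicate 4 stands highest.

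Tnfrsf13c, Lta, Ltb and Cd27 were called lower in Cur/ZNP gel against Sham. Tnfrsf13c had 0, 65.1, 32.4, 565 and 7.94 normalized counts in Cur/ZNP gel 1 to 5, and Cd27 had 14.8, 52.1, 37.0, 326 and 4.96. Ms4a1 had 13.1, 208, 173, 1912 and 22.8 in the same libraries, so replicate 4 was highest in each. Against Sham, Tnfrsf13c differed by -4.60 (SE 1.34, adjusted p = 0.0101), Lta by -3.46 (SE 1.12, adjusted p = 0.0182), Ltb by -2.12 (SE 0.73, adjusted p = 0.0253) and Cd27 by -3.13 (SE 1.24, adjusted p = 0.0497), all by limma. Lta reached 2 CPM in 1 library alone, Sham 1, with 240 reads and 4.48 CPM, so it was tested only because it was high in Sham, and its call is given as a description. The Tnfrsf13c call held without each single library. Without Sham 4, EP 3 and EP 4 it held as well (adjusted p = 0.0299), whereas the calls of Lta (adjusted p = 0.0538), Ltb (adjusted p = 0.0842) and Cd27 (adjusted p = 0.132) ended. The Lta call ended without Cur/ZNP gel 5 or Sham 1 (adjusted p = 0.0601 and 0.0603). The Ltb call ended without Cur/ZNP gel 1, Cur/ZNP gel 5, Sham 1 or Sham 4 (adjusted p = 0.0589 to 0.0932). The Cd27 call ended without Cur/ZNP gel 1, 2, 3 or 5, Sham 1, Sham 4 or Sham 5 (adjusted p = 0.0597 to 0.157), and it also ended with TMM scaling. In Cur gel, Ltb (-1.90, adjusted p = 0.0450) and Tnfrsf8, a receptor of activated lymphocytes (-2.78, adjusted p = 0.0273), were called. The Ltb call there ended without Cur gel 2, Cur gel 4, Sham 1, Sham 4 or Sham 5 (adjusted p = 0.0756 to 0.153), and the Tnfrsf8 call without Cur gel 2, Sham 1, Sham 4 or Sham 5 (adjusted p = 0.0534 to 0.0919). Both ended without Sham 4, EP 3 and EP 4 (adjusted p = 0.132 for Ltb and 0.0733 for Tnfrsf8). Of the 10 B and plasma cell markers, 5 fell in Cur/ZNP gel, 0 in ZNP gel, 1 in Cur gel and 0 in EP. In Cur/ZNP gel and ZNP gel 0 of them rose, and 1 rose in each of Cur gel and EP. Their summed level was 4817 to 45260 in Cur/ZNP gel and 13640 to 117600 in EP, against 5532 to 130600 in Sham, with the highest Sham value in Sham 4. Of the 12 tested markers of T and natural killer cells, 2 fell and 1 rose in Cur/ZNP gel, and the summed level was 1945 to 5068 in Cur/ZNP gel, against 1539 to 13060 in Sham. The part of these cells in the values of the lymphoid members was not tested.

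Tnf itself did not pass in any comparison, with 5.83, 35.9, 57.8, 42.5 and 16.5 normalized counts in EP 1 to EP 5, against 92.8, 12.5, 11.8, 34.6 and 71.7 in Sham 1 to Sham 5. The groups overlapped throughout. The difference was -0.38 (95% interval -1.98 to 1.23, adjusted p = 0.726 by limma) and turned to 0.10 without EP 1 (adjusted p = 0.932). Tnfrsf1a, the broadly expressed death-domain receptor, had 4755, 4378, 4537, 4825 and 4950 in EP 1 to EP 5, against 5216, 5946, 5588, 4659 and 5234 in Sham 1 to Sham 5 (-0.18, adjusted p = 0.0791 by limma). It fell in Cur gel, with 4770, 4360, 3946, 4362 and 4342 (-0.29, SE 0.080, adjusted p = 0.00763 by limma), a call that held without each single library and ended with scaling by total reads (adjusted p = 0.805). Tnfrsf1b, the receptor of leukocytes and endothelium, had 711, 594, 1251, 1025 and 766 in EP, against 475, 661, 159, 346 and 743 in Sham, with overlap (1.00, adjusted p = 0.0715 by limma). It rose in ZNP gel (1.34, SE 0.43, adjusted p = 0.0222) and in Cur/ZNP gel (1.199, SE 0.43, adjusted p = 0.0316), both by limma. The ZNP gel values were 3632, 641, 873, 723 and 906, and the call ended without ZNP gel 1 (adjusted p = 0.0748) or Sham 3 (adjusted p = 0.082). The Cur/ZNP gel call ended without Cur/ZNP gel 2, Sham 3 or Sham 4 (adjusted p = 0.0618 to 0.110) and by edgeR (adjusted p = 0.0545). ZNP gel 1 also had the highest summed macrophage markers, 68230, and neutrophil markers, 12000, of all libraries, and their part in the Tnfrsf1b value was not tested.

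Fas, the death receptor of Faslg, had 418, 423, 540, 473 and 431 normalized counts in EP 1 to EP 5, against 815, 479, 223, 945 and 831 in Sham 1 to Sham 5. EP lay in a narrow range inside the wide one of Sham. The difference was -0.36 (95% interval -0.96 to 0.23, adjusted p = 0.328 by limma), and without Sham 3 Fas was called lower (adjusted p = 0.0168). Tnfrsf21, a death-domain receptor also known as DR6, rose in Cur gel, with 5349, 5342, 4999, 6956 and 4526, against 3743, 3814, 4153, 3555 and 4235 in Sham. The groups did not overlap. The difference was 0.47 (SE 0.18, adjusted p = 0.0457 by limma), and the call ended without any 1 of Cur gel 1, 2, 3 or 4 or Sham 1, 2, 3 or 4 (adjusted p = 0.0573 to 0.120) and without Sham 4, EP 3 and EP 4 (adjusted p = 0.0936).

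Tnfsf12, the ligand of Tnfrsf12a, and its chromosomal neighbour Tnfsf13, a ligand of plasma cells, are next to each other on chromosome 10 (chr10:56290780-56300077 and chr10:56286887-56289952, both on the minus strand). Tnfsf12 had 2818, 2653, 2159, 2637 and 2695 normalized counts in Cur/ZNP gel 1 to 5, against 1507, 1616, 1823, 1894 and 1618 in Sham 1 to Sham 5. The groups did not overlap, the difference was 0.61 (SE 0.14, adjusted p = 0.00203 by limma), and the call held in all 11 alternatives and without each single library. It had 2519, 2025, 1879, 1623 and 1636 in EP and did not pass there (0.18, adjusted p = 0.324). Its receptor Tnfrsf12a fell against Sham in Cur/ZNP gel and also in EP, ZNP gel and Cur gel. Limma called the ligand in Cur/ZNP gel alone, and DESeq2 called it higher in ZNP gel as well. Tnfsf10, an apoptosis-inducing ligand also known as Trail, rose in Cur/ZNP gel as well, with 2366, 2027, 1890, 2343 and 2238, against 1197, 1381, 518, 2218 and 1307 in Sham (0.85, SE 0.25, adjusted p = 0.0104 by limma). Cur/ZNP gel overlapped with Sham 4 alone, and the call held without each single library. Tnfsf10 in EP missed the threshold (0.62, adjusted p = 0.0548) and passed without Sham 4, EP 3 and EP 4 (0.83, adjusted p = 0.0298). Tnfsf13, singled out after its values were seen, had 763, 1095, 3771, 4386 and 905 in EP, against 921, 584, 369, 4986 and 694 in Sham. The high libraries EP 3, EP 4 and Sham 4 are those with nasal gland transcripts, and EP did not pass against Sham (0.84, adjusted p = 0.225 by limma). Without these 3 libraries Tnfsf13 was higher than in Sham in Cur/ZNP gel (0.73, adjusted p = 0.0365), ZNP gel (1.11, adjusted p = 0.00578) and Cur gel (1.02, adjusted p = 0.00626), and not called in EP (0.58, adjusted p = 0.150), all by limma. Transcripts that join both genes are known in human, and the counting may split their reads between the genes.

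**Figure D4:**
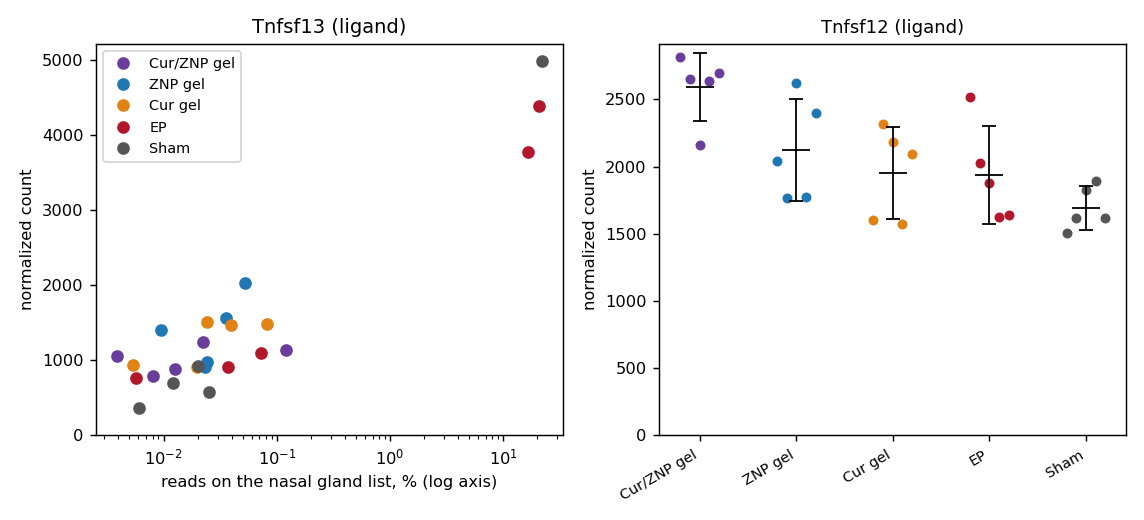
Left, normalized counts of Tnfsf13 (vertical axis, from 0) against the percentage of reads on the nasal gland list (horizontal log axis), with 1 point per library. Right, normalized counts of Tnfsf12 by group, with the mean and SD of 5 libraries. Tnfsf13 is at 3771 or more in EP 3, EP 4 and Sham 4 and at 2024 or less elsewhere, and Tnfsf12 is at 2159 or more in Cur/ZNP gel, against 1894 or less in Sham.

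Several members sit in clusters of the genome, and their differences in EP against Sham are given side by side, without a test between neighbours. On chromosome 4 of Rnor_6.0, Ltbr (chr4:157822840-157829241) was called lower in EP (-0.43), and Cd27 (chr4:157744882-157750088), at -1.97, and Tnfrsf1a (chr4:157864969-157877633), at -0.18, had the same sign and were not called. On chromosome 20, Tnf lies between Lta and Ltb, and none of the 3 was called in EP, with differences of -0.38 for Tnf, -2.49 for Lta and -1.78 for Ltb. On chromosome 5, Tnfsf15 was called higher in EP (3.30) and its neighbour Tnfsf8 (chr5:79664765-79691258), a ligand of activated T cells, was not (-0.53, adjusted p = 0.643 by limma). In the receptor cluster of chromosome 5, Tnfrsf18 (chr5:173460354-173463140) was called lower (-1.06) and Tnfrsf4 (chr5:173447784-173450474), a T cell costimulator, was not (-0.46, adjusted p = 0.564 by limma).

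Between the gel groups and EP no member passed the threshold. The count of calls was 0 of 30 in Cur/ZNP gel, ZNP gel and Cur gel against EP, by limma, edgeR and DESeq2, beside 0%, 0.00621% and 0% of all genes by limma. Of all genes edgeR called 0, and DESeq2 called 84 higher and 121 lower in Cur/ZNP gel, 4 and 59 in ZNP gel, and 11 and 71 in Cur gel, each against EP. At an unadjusted p of 0.05 by limma, 4 members were under it in Cur/ZNP gel against EP (12.8% of all genes), 1 in ZNP gel against EP (2.99%) and 0 in Cur gel against EP (1.76%). By DESeq2 these were 4, 1 and 0, and by edgeR 3, 1 and 0. Tnfrsf19 was lower than in EP by -0.67 in Cur/ZNP gel (95% interval -1.15 to -0.19, adjusted p = 0.293), -0.56 in ZNP gel (-1.04 to -0.08, adjusted p = 1) and -0.48 in Cur gel (-0.96 to 0.0024, adjusted p = 1). The Tnfrsf19 values of EP formed a high set of 3 libraries and a low one of 2, and each gel group overlapped with EP. Tnfsf12 differed by 0.43 in Cur/ZNP gel against EP (95% interval 0.14 to 0.73, adjusted p = 0.293), with EP 1 inside the range of Cur/ZNP gel. Tnfrsf1a differed by -0.11 in Cur gel against EP (95% interval -0.27 to 0.059, adjusted p = 1), and by 0.21 with scaling by total reads. Tnfsf13b, the survival factor of B cells, differed by 0.96 in ZNP gel against EP (95% interval -0.38 to 2.29, adjusted p = 1). For Eda2r the interval of Cur/ZNP gel against EP reached up to 1.48, and for Tnf it reached up to 1.51. Changes of that size are therefore not shown to be absent at this spread.

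**Figure D5:**
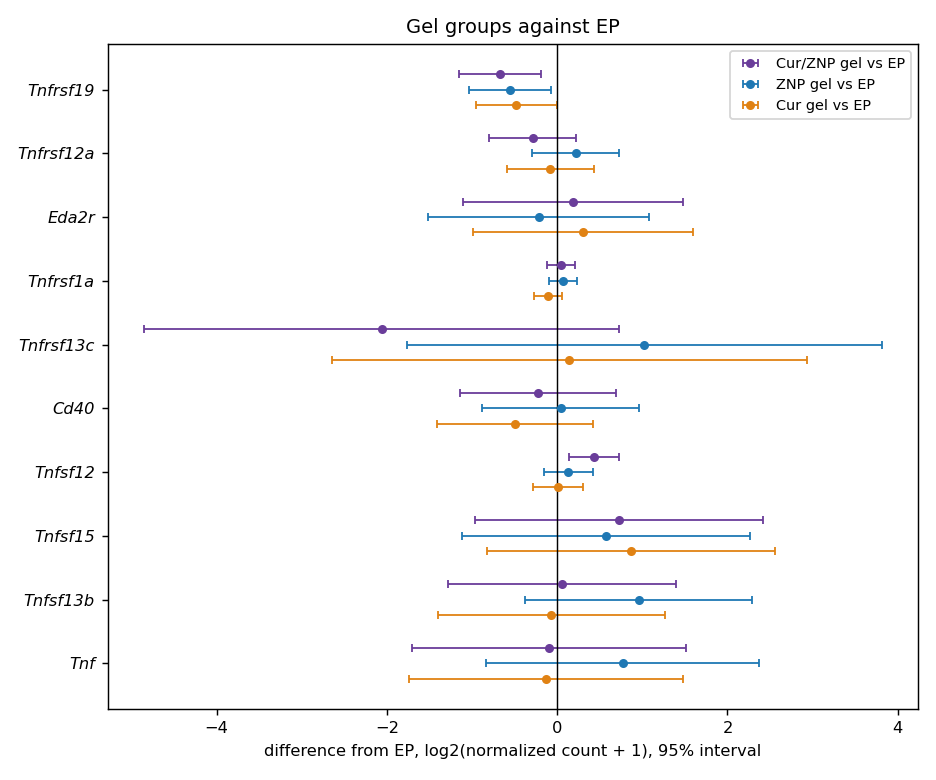
Difference of each gel group from EP for 10 members on the log2(normalized count + 1) scale (horizontal axis), with 95% intervals from limma before adjustment for many tests. Intervals of Tnfrsf19 lie below 0 for Cur/ZNP gel and ZNP gel and that of Tnfsf12 lies above 0 for Cur/ZNP gel, and none passed an adjusted p of 0.05.

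The gels were also set against each other, again with 0 calls among 30 members in each of the 3 comparisons by limma, edgeR and DESeq2, beside 0% of all genes by limma. Of all genes edgeR also called 0, and DESeq2 called 3 higher and 2 lower for Cur/ZNP gel minus Cur gel, 22 and 2 for Cur/ZNP gel minus ZNP gel, and 1 and 11 for ZNP gel minus Cur gel. At an unadjusted p of 0.05 by limma, 3 members were under it for Cur/ZNP gel minus Cur gel (11.1% of all genes), 3 for Cur/ZNP gel minus ZNP gel (5.08%) and 1 for ZNP gel minus Cur gel (1.14%). Tnfsf12 was higher by 0.42 in Cur/ZNP gel than in Cur gel (95% interval 0.13 to 0.71, adjusted p = 0.294), with 2159 to 2818 normalized counts in Cur/ZNP gel, against 1574 to 2313 in Cur gel. Tnfrsf21 was lower by -0.44 in Cur/ZNP gel than in Cur gel (-0.81 to -0.065, adjusted p = 0.357). Tnfsf10 did not overlap between these groups, at 1890 to 2366 in Cur/ZNP gel, against 1197 to 1672 in Cur gel (0.53, adjusted p = 0.439). It was singled out after its values were seen, and the share of all genes without overlap was not counted. Tnfrsf13b and Tnfrsf13c, both receptors of B and plasma cells, differed by -3.00 and -3.09 for Cur/ZNP gel minus ZNP gel (adjusted p = 0.899 for each). Tnfrsf13b had 0, 68.1, 34.2, 198 and 0 in Cur/ZNP gel, against 154, 42.4, 135, 153 and 111 in ZNP gel. Tnfrsf1a differed by 0.17 (0.0069 to 0.34, adjusted p = 1) and Tnfrsf21 by -0.30 (-0.68 to 0.070, adjusted p = 1) in ZNP gel against Cur gel, all by limma. The agents were at lower concentrations in the combined gel than in the single gels, so these differences are not at matched doses.

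Downstream of the receptors, a list of 40 genes of adaptors, ubiquitin enzymes, death effectors and the sheddase was read in EP against Sham. Of these, 11 rose and 10 fell, 52.5% of the list beside 37.6% of all genes, and the median difference was -0.11, against 0.013 for all genes. The list was chosen with earlier results of these data known, so its share is given as a description. Traf6, an adaptor and ubiquitin ligase shared with the interleukin-1 and Toll-like receptors, averaged 985 ± 115 normalized counts in EP and 397 ± 202 in Sham (SD, n = 5 each), a difference of 1.45 (adjusted p = 0.000203 by limma). Xiap, an inhibitor of caspases, averaged 1833 ± 315 in EP and 561 ± 507 in Sham, a difference of 2.22 (adjusted p = 0.000443). Cyld, a deubiquitinase that restrains NF-κB, rose by 0.90 (adjusted p = 0.000563), Tab2, an adaptor of the kinase Tak1, by 0.47 (adjusted p = 0.00146), and Cflar, which blocks caspase-8, by 0.85 (adjusted p = 0.00170). Traf3, Ikbkg, Tab3, Tnfaip3, Map3k5 and Fadd made up the other higher genes. Tradd, Traf1, Traf2, Traf5, Casp8, Mlkl, Diablo, Rbck1 and Adam17 were among the lower ones. Both signs thus occurred among adaptors, with Traf6 and Traf3 higher and Traf1, Traf2, Traf5 and Tradd lower. Scaling by total reads left 4 higher and 4 lower of the 40, beside 1212 and 1840 of all 16092 genes. EP and Sham fitted alone gave 8 and 5, beside 1745 and 1635 of all genes. The excess of the list over all genes thus depended on the scaling. Leaving out EP 2 or Sham 1 left 6 lower, beside 2483 and 2357 of all genes. Among 4 relatives of the family under other names, Ngfr, the low-affinity neurotrophin receptor, fell (567 ± 154 in EP and 1552 ± 581 in Sham, -1.38, adjusted p = 0.00540 by limma). Markers of autonomic neurons fell in the same comparison, 6 of 7 tested, with a summed level of 25.4 to 135 in EP, against 285.9 to 103200 in Sham, and their part in the Ngfr value was not tested. Eda, Edar and Relt did not pass (adjusted p = 0.457, 0.864 and 0.438).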

How the data were processed

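Total RNA of gingiva was sequenced from libraries depleted of ribosomal RNA and prepared with a strand-marking kit. The authors deposited 1 table of normalized counts per Ensembl transcript of Rnor_6.0 (a signal value, reads divided by a size factor per library). DESeq2 is named in the submitters' processing notes. The aligner and counter are not given in the sources used here. Multiples of a fixed step gave whole reads for 100% of values within 0.01, so the 25 deposited columns were turned back into reads. Transcripts were summed per symbol, and 840 blank lines and the 396 transcripts without a symbol, with at most 0.013% of the reads of a library, named no member.

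Genes with at least 2 CPM in 1 library were fitted with limma 3.58.1 (R 4.3.3, trend and robust) on log2(normalized count + 1), all 25 libraries in 1 fit, with Benjamini-Hochberg adjustment over 16092 genes. Since the values are not counts as deposited, edgeR 4.0.16 and DESeq2 1.42.0 on the recovered reads were alternatives, with TMM or total read scaling, pseudocounts of 0.5 and 5, other filters, groups fitted in twos, a replicate block, and single libraries left out. The fit was tested on simulated data. The labels do not say how the 5 samples of a group were taken, so p-values measure the spread between these samples, which may be partly technical. Reads were counting units without molecular identifiers, and depth limits the precision of members below about 2 CPM.

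The members, the pathway list and the marker lists were chosen with earlier results of these data known. Members given with all values were those called in EP against Sham, Tnf, Fas and the 2 with the smallest p in each comparison without Sham, and of the pathway list the 6 with the smallest p, 1 of which is not reported here. Promoter windows came from the RefSeq table of GRCr8, in which 28 of 35 members matched and 7 did not. The file's length column spans introns, so levels were not compared between genes. Coordinates of genes are those of the deposited table.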

Additional observations from a re-analysis of the deposited data

Results flagged for a closer look

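A single library stood apart from the other 4 of its group (Dixon's ratio of the gap to the range) in 5 of 105 groups examined over 21 members, and chance flags about 1 in 20. In ZNP gel, Tnfrsf1b was high in ZNP gel 1, at 3632 normalized counts, against 641 to 906 in the others. In the same group Tnfrsf13b was low in ZNP gel 2, at 42.4, against 111 to 154, and so was Lta, at 1.73, against 23.9 to 41.8. Tnfrsf8 was at 0 in Cur gel 2, against 39.7 to 65.6 in the other Cur gel libraries. Tnfsf12 was low in Cur/ZNP gel 3, at 2159, against 2637 to 2818.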

How the results depend on the processing

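Of 52 results on single members, 504 of 567 values under the alternatives and 440 of 520 without a single library kept their direction and their side of the threshold. Among the 52 are Tnf and Fas in EP against Sham and the members named in comparisons without Sham. None of these was called and few of their values changed, so the counts overstate how often calls held. Against Sham, DESeq2 gave 13 lower members for EP (limma 5), 16 for Cur gel (7), 8 for ZNP gel (4) and 14 for Cur/ZNP gel (9), and edgeR gave 8 for EP and 11 for Cur gel. Of all 16092 genes, DESeq2 called 3578 lower for EP, 3968 for Cur gel, 3353 for ZNP gel and 3866 for Cur/ZNP gel. The lower genes by edgeR were 3155 for EP and 3645 for Cur gel. Scaling by total reads gave 3, 3, 1 and 5 lower members in the same order of groups, and 4 higher and 4 lower pathway genes (11 and 10). With only the groups compared in the fit, lower members were 2 in each of the 4 comparisons, higher members were 1 for EP, 1 for ZNP gel and 3 for Cur/ZNP gel, and lower pathway genes were 5. In those fits the lower genes of all 16092 were 1635 for EP, 1643 for Cur gel, 882 for ZNP gel and 1716 for Cur/ZNP gel. The higher ones were 1745 for EP, 1080 for ZNP gel and 1947 for Cur/ZNP gel. Without the filter on low values, EP had 3 lower members, beside 3024 of all 24507 genes then tested. Without Sham 4, EP 3 and EP 4, lower members were 1 for EP, 4 for Cur gel, 2 for ZNP gel and 5 for Cur/ZNP gel, and higher members of ZNP gel were 5. Without these libraries the lower genes of all 16092 were 2347 for EP, 3010 for Cur gel, 2449 for ZNP gel and 3049 for Cur/ZNP gel. The higher ones of ZNP gel were 2302. With single libraries left out, higher members were 2 to 4 for EP, 2 to 3 for Cur gel, 2 to 4 for ZNP gel and 4 to 5 for Cur/ZNP gel, and lower members 1 to 8, 4 to 11, 2 to 7 and 5 to 13. Over all genes the higher calls were 2417 to 3388, 2421 to 3421, 1987 to 3172 and 2641 to 3616 in the same order. The lower ones were 2357 to 3395, 2313 to 3547, 1749 to 3021 and 2446 to 3624. Pathway genes were 10 to 11 higher and 6 to 10 lower. Tnf in EP against Sham was -0.72 to 0.10 with single libraries left out, reversed without EP 1, and Tnfrsf1a in Cur gel against EP reversed to 0.21 under total read scaling. In all 6 comparisons without Sham the count of members stayed at 0 in every setting. The cause of these shifts was not tested.

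The replicate block gave 2 higher and 5 lower members for EP, 3 and 8 for Cur gel, 3 and 3 for ZNP gel (Cd40 lost) and 5 and 9 for Cur/ZNP gel. Of all genes it called 3006 higher and 2968 lower, 3021 and 2991, 2686 and 2436, and 3188 and 3128 in the same order. Deviations of equally numbered libraries correlated at -0.39 to 0.51 (median -0.0073) over 50 pairs, 17 of them over 0.1, so the numbers were not taken as pairs.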
